A study of Mus musculus with 62 samples.

Results

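The comparison described here set the prefrontal cortex of female C57BL/6 mice given 0.1 mg/kg of a polychlorinated biphenyl (PCB) mixture against that of vehicle-treated mice. PCBs are persistent industrial chlorinated compounds, and the mixture, named MARBLES after a pregnancy cohort, was given by mouth. The comparison used 9 libraries, 5 labelled 0.1 mg/kg (numbers 23, 24, 25, 28 and 29 in the sample titles) and 4 labelled vehicle (numbers 3, 4, 7 and 8), of 62 libraries in the series and 21 from prefrontal cortex. The other prefrontal libraries came from mice given 1 mg/kg (6 libraries) or 6 mg/kg (6 libraries), and the striatum and liver were sampled under the same scheme. Members were chosen by their tissue and treatment labels alone. Libraries are called below by the animal number, although the labels do not say that the number in a title marks the animal. No genetic change was labelled. Age, length of dosing and the vehicle itself were not given in the sources used here. RNA was isolated from tissue punches, so each library is a mixture of neurons, glia and vessel cells, in which fewer cells of a type and less RNA per cell cannot be told apart.

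The endoplasmic reticulum (ER) folds secreted and membrane proteins with the help of chaperones such as BiP (Hspa5) and of protein disulfide isomerases. When unfolded proteins build up in it, the sensors Ire1, Perk and Atf6 switch on the unfolded protein response, which raises the transcription of these chaperones, in part through a promoter element called the ER stress response element. A separate system, driven by the factor Hsf1, controls cytosolic heat shock chaperones, and the SREBP factors control cholesterol synthesis from the ER membrane. PCBs are known to act on the aryl hydrocarbon receptor, on the nuclear receptors of xenobiotic metabolism, on thyroid hormone signalling and on ryanodine receptors, the calcium release channels of the ER.

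The genes with the smallest p-values in the comparison included Manf and Hspa5, both ER chaperone genes, so the promoters of that family are shown first. Of 26 genes on the ER stress list, 22 matched a RefSeq promoter (GRCm38.p6). In the 250 bases before the start site, 8 of these 22 genes held the ER stress response element (CCAAT and then CCACG with 9 bases between them, searched on both strands): Hspa5, Hsp90b1, Calr, Canx, Pdia6, Dnajc3, Creld2 and Syvn1. Among all genes with a RefSeq promoter, 35 of 27025 (0.13%) held it, and among all promoters 37 of 32851 (0.113%). Windows around the element follow for 4 genes with an unadjusted edgeR p under 0.05 at 0.1 mg/kg and 2 without, read 5′ to 3′ along the gene's strand with the element in capitals.
Hspa5, chr2:34771995-34772073, + strand: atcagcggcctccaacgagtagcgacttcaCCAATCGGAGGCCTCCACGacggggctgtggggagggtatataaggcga
Pdia6, chr12:17266461-17266539, + strand: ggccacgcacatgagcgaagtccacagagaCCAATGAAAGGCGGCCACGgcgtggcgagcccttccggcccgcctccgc
Calr, chr8:84847045-84847123, - strand: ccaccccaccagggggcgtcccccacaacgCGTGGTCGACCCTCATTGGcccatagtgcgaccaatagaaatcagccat
Hsp90b1, chr10:86705608-86705686, - strand: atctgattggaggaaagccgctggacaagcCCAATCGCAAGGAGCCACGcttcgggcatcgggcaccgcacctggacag
Canx, chr11:50325770-50325848, - strand: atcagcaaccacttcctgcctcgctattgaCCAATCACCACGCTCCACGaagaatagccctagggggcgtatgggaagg
Creld2, chr15:88819490-88819568, + strand: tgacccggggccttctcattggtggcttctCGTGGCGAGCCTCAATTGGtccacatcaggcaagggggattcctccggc
In Hspa5 and Pdia6 the element lay on the gene's strand and ended 46 and 79 bases before the start site. In Calr and Creld2 the match was on the opposite strand, so that the capitals read as the reverse complement. Hsp90b1 held 2 matches, of which the one farther from the start site is shown. A match describes letters only: Canx and Creld2 carried the element as well, with log2 fold changes of 0.05 and 0.29 and unadjusted edgeR p-values of 0.555 and 0.136.

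The 9 libraries held similar numbers of counts. Totals ran from 8794843 to 12135200 at 0.1 mg/kg and from 8874514 to 11672016 in vehicle, a difference within their spread (two-sided exact permutation test, p = 0.746). The libraries differed more in how their levels depended on transcript length. A length slope was computed for each library, as the Spearman correlation of gene-wise deviations from the prefrontal average with the length of each gene's longest transcript. It ran from 0.149 to 0.456 in vehicle, and was 0.409, -0.331, -0.162, -0.474 and 0.305 in animals 23, 24, 25, 28 and 29 at 0.1 mg/kg. Short transcripts were thus relatively abundant in animals 24, 25 and 28, and most so in 24 and 28. The difference between the group means of the slope did not pass the exact permutation test (two-sided, p = 0.175). Values with this slope in the model, or without animals 24 and 28, are given beside gene groups below. The labels do not say that libraries came from separately housed or dosed mice, so that p-values measure the spread between these samples.

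In edgeR's quasi-likelihood test none of 14838 genes (0%) passed a Benjamini-Hochberg adjusted p of 0.05. At an unadjusted p under 0.05 there were 504 genes higher (3.40%) and 450 lower (3.03%) at 0.1 mg/kg. DESeq2, run as an alternative, called 1 gene (0.00674%), Manf, and gave 1007 genes at an unadjusted p under 0.05. CPM values (counts scaled to a common library size with TMM factors) of the groups did not overlap for 137 genes higher (0.923%) and 169 lower (1.14%) at 0.1 mg/kg. Gene groups are therefore described below by how many members stood at an unadjusted p under 0.05, read against these shares, and no member was called changed by edgeR.

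Manf was the gene with the smallest p-value. It encodes mesencephalic astrocyte-derived neurotrophic factor, a protein kept in the ER lumen and released under ER stress (chr9:106888753-106891938, GRCm38). Its levels were 34.1, 34.1, 42.3 and 37.7 CPM in vehicle animals 3, 4, 7 and 8, and 47.2, 51.4, 54.7, 59.3 and 47.1 CPM in animals 23, 24, 25, 28 and 29 at 0.1 mg/kg. The groups did not overlap, and the lowest treated library stood above the highest vehicle library. EdgeR gave a log2 fold change of 0.49 (SE 0.10), a p of 6.50e-05 and an adjusted p of 0.584. In DESeq2 it was 0.49 (SE 0.104, adjusted p = 0.0379).

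Hspa5 encodes BiP, the Hsp70 chaperone of the ER lumen and the usual readout of the unfolded protein response (chr2:34772090-34776529, GRCm38). It stood at 222, 248, 250.4 and 329.7 CPM in vehicle and at 308, 331, 414, 447 and 414 CPM at 0.1 mg/kg. Vehicle animal 8 lay above treated animal 23 and close to treated animal 24, and the other vehicle libraries lay below all treated ones. On the log2 scale the difference was 0.54 (SE 0.12), and the edgeR adjusted p was 0.584.

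Other ER proteins stood higher as well, among them disulfide isomerases and the lectin chaperone Calr. Pdia4, a protein disulfide isomerase, was at 30.6, 24.5, 33.8 and 38 CPM in vehicle and 35.6, 36.4, 50.8, 49.3 and 55.3 CPM at 0.1 mg/kg. Animals 25, 28 and 29 lay above every vehicle library, and animals 23 and 24 lay within the vehicle range; the log2 fold change was 0.52 (SE 0.15). Calr, the calcium-binding lectin chaperone calreticulin, was at 283, 302, 312 and 348 CPM in vehicle and 318, 376, 438, 439 and 394 CPM at 0.1 mg/kg, with a log2 fold change of 0.34 (SE 0.10). Only animal 23 overlapped the vehicle range for this gene. Pdia6, a further isomerase, averaged 104 ± 8.61 CPM (n = 4, SD) in vehicle and 138 ± 18.5 CPM (n = 5, SD) at 0.1 mg/kg, a log2 fold change of 0.41 (SE 0.12).

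Hsp90b1, the Hsp90 of the ER, did not overlap between groups: 276, 272, 254 and 283 CPM in vehicle against 300.3, 310.5, 377, 321 and 316 CPM at 0.1 mg/kg, a log2 fold change of 0.26 (SE 0.09). Atf4, the transcription factor translated when Perk is active, did not overlap either, with a vehicle range of 114 to 120.3 CPM and a treated range of 124 to 178 CPM. Its log2 fold change was 0.35 (SE 0.11). The largest log2 fold change among the members at an unadjusted p under 0.05 was that of Sdf2l1, a partner of BiP, at 0.68 (SE 0.25), but its treated libraries spread from 8.02 to 25.1 CPM around a vehicle range of 6.40 to 11.9 CPM. Smaller differences were seen for Xbp1, the factor spliced by Ire1 (log2 fold change 0.29), Herpud1, a component of ER-associated degradation (0.29), the BiP cochaperone gene Dnajb11 (0.30) and Pdia3 (0.25).

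In all, 12 of the 26 ER stress genes tested (46.2%) stood higher at an unadjusted edgeR p under 0.05, against 3.40% of all genes, and none stood lower. The median log2 fold change over the list was 0.21, against 0.01 over all genes, and 19 of 26 members had a positive value. CPM did not overlap for 3 members, Manf, Hsp90b1 and Atf4, each higher, against 0.923% of all genes. The mean log2 CPM of the list ran from 5.59 to 5.76 in vehicle and from 5.68 to 5.95 at 0.1 mg/kg. With the length slope in the model 9 members had an unadjusted p under 0.05, all higher and 8 of them among the 12, with a median of 0.18; without animals 24 and 28 there were 11, 10 of them among the 12, with a median of 0.20. Leaving out each library in turn gave 9 to 13 members. The sensors themselves, Ern1, Eif2ak3 and Atf6, had log2 fold changes of -0.07, -0.08 and -0.04.

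**Figure D1:**
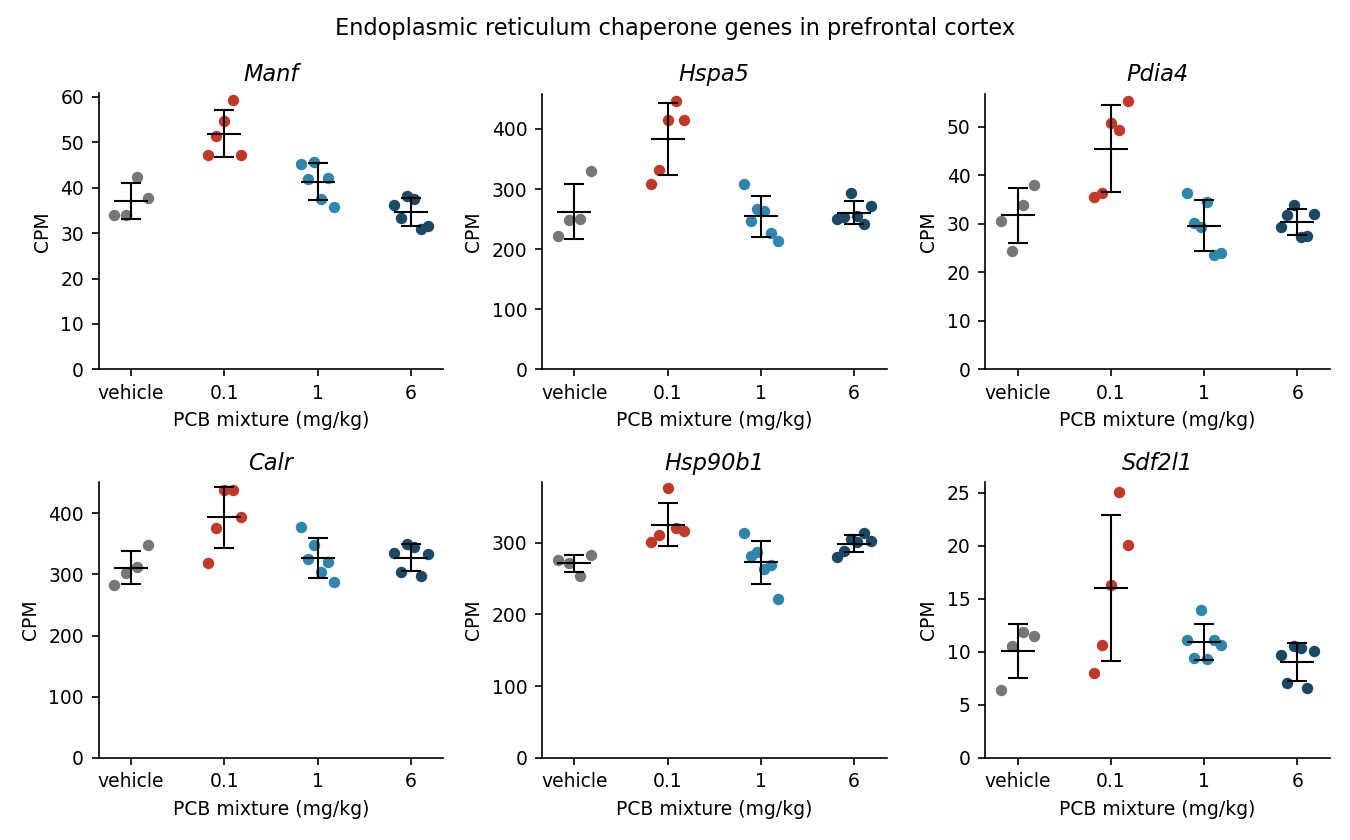
CPM of 6 ER chaperone genes in each prefrontal library (points) by dose of the PCB mixture in mg/kg, with the mean and SD of each group (black; n = 4, 5, 6 and 6). Manf and Hsp90b1 at 0.1 mg/kg lie above the vehicle libraries without overlap, and the 1 and 6 mg/kg means of Hspa5 (254 and 261 CPM) lie near the vehicle mean (263 CPM).

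The higher doses were set against the same vehicle libraries, so their values are given side by side. The median log2 fold change of the ER stress list was -0.02 at 1 mg/kg and -0.02 at 6 mg/kg. Some members differed from vehicle at 6 mg/kg at an unadjusted edgeR p under 0.05. Atf4 and Herpud1 were each higher at 0.24 and Pdia3 at 0.18, while Atf3, near 2 CPM in vehicle, was lower at -1.07. At 1 mg/kg Atf4, Herpud1, Pdia3 and Atf3 were at 0.20, 0.03, 0.08 and -0.99. Manf averaged 41.3 ± 4.02 CPM (n = 6, SD) at 1 mg/kg and 34.6 ± 3.14 CPM (n = 6, SD) at 6 mg/kg, and Hspa5 254 ± 33.4 CPM (n = 6, SD) and 261 ± 18.7 CPM (n = 6, SD). The difference between doses was tested directly. None of 14838 genes (0%) passed between 0.1 and 1 mg/kg, where 782 had an unadjusted edgeR p under 0.05. Between 0.1 and 6 mg/kg 16 genes passed (0.108%), among them Manf (log2 difference 0.59, edgeR adjusted p = 0.00649) and Hspa5 (0.56, edgeR adjusted p = 0.0342). Both were higher at the lower dose. The heat shock genes Hspa1a and Hspa1b, the cyclooxygenase gene Ptgs2 and the cell cycle inhibitor gene Cdkn1a passed in the same direction. Against vehicle these 4 lay on both sides of 0 at the 2 doses: the log2 fold changes at 0.1 and 6 mg/kg were 0.54 and -0.23 for Hspa1a, 0.47 and -0.37 for Hspa1b, 0.41 and -0.52 for Ptgs2, and 0.34 and -0.56 for Cdkn1a, so that for Ptgs2 and Cdkn1a more of the difference lay at 6 mg/kg.

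Striatal libraries with the same numbers gave a second set, 5 at 0.1 mg/kg and 4 vehicle. If the numbers mark animals, this set came from the same mice and is not independent. None of 15118 striatal genes passed the adjusted threshold in edgeR, and 186 (1.23%) stood higher and 197 (1.30%) lower at an unadjusted p under 0.05. Of the 26 ER stress genes, 11 stood higher there and none lower at that p, with a median log2 fold change of 0.23 and a positive value in 25 of 26. Hspa5 had a striatal log2 fold change of 0.51 (SE 0.11), close to its prefrontal value, and Pdia4, Calr and Pdia6 had 0.39, 0.31 and 0.34. Manf was at 0.19 (SE 0.13) and Atf4 at 0.08 (SE 0.12), both smaller than in prefrontal cortex. The test of the difference between regions gave edgeR adjusted p-values of 0.990 for Manf and 0.990 for Atf4. In liver at 0.1 mg/kg (4 libraries) the list's median was 0.00.

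**Figure D2:**
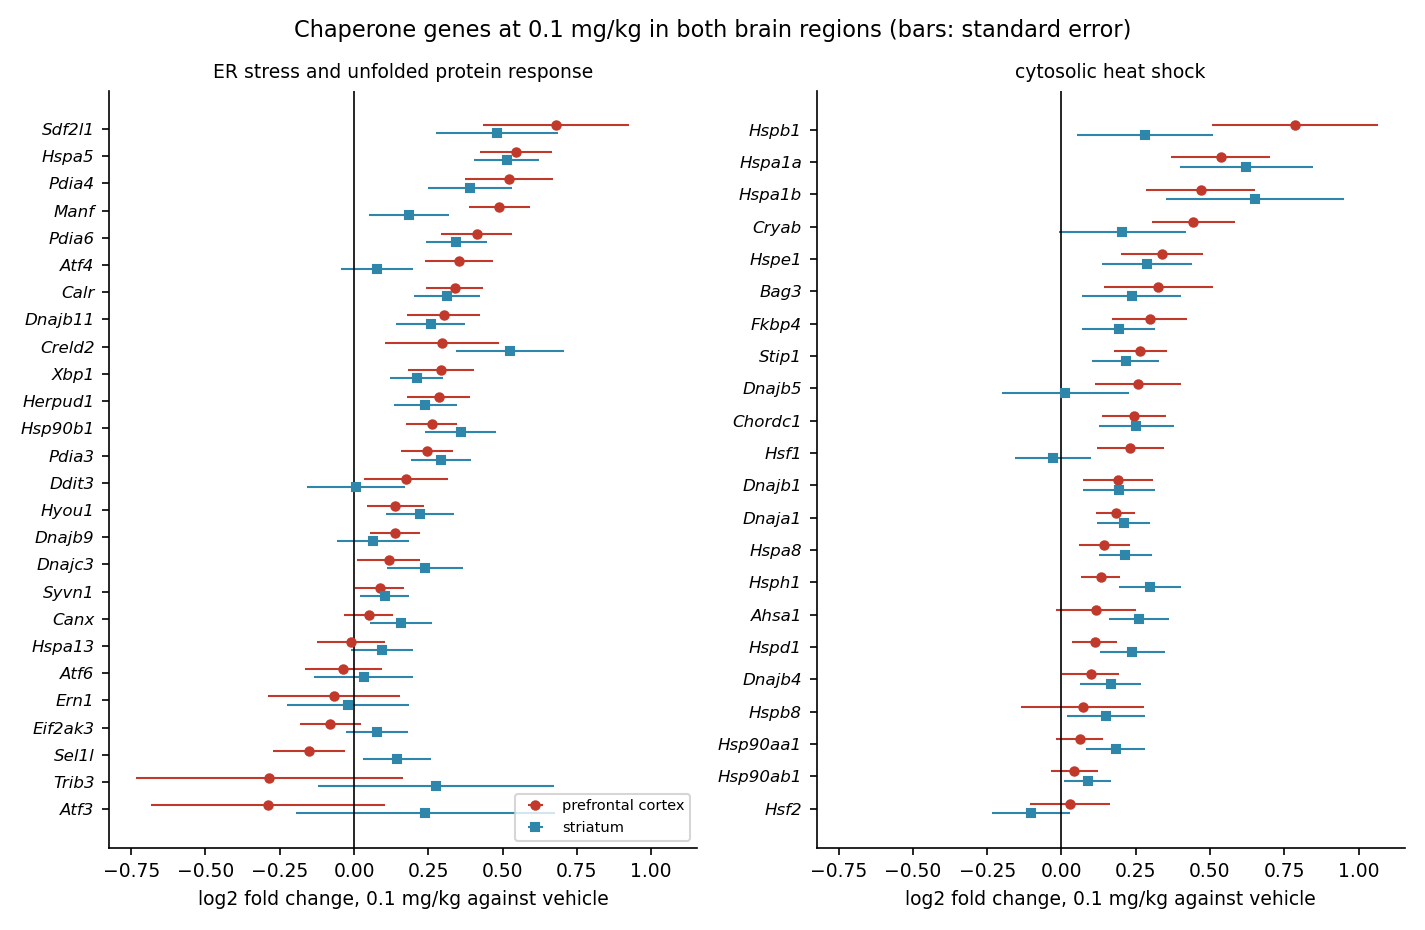
Log2 fold change at 0.1 mg/kg against vehicle, with its standard error, for each tested member of the ER stress list (left, 26 genes) and the cytosolic heat shock list (right, 22 genes) in prefrontal cortex (red circles) and striatum (blue squares). Most members lie to the right of 0 in both regions: 19 and 25 of the 26 ER genes and 22 and 20 of the 22 heat shock genes.

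The cytosolic heat shock list also stood higher. All 22 of its tested members had a positive log2 fold change, with a median of 0.21. Of these 9 (40.9%) stood higher at an unadjusted edgeR p under 0.05, against 3.40% of all genes, and none stood lower. Hspa1a, the stress-inducible Hsp70, was at 26.9, 22.2, 37.9 and 25.9 CPM in vehicle and 35.3, 37.5, 35, 50.3 and 46.5 CPM at 0.1 mg/kg. Vehicle animal 7 lay inside the treated range, and the other vehicle libraries lay below it. The log2 fold change was 0.54 (SE 0.17), and that of its neighbour Hspa1b, whose coding sequence is nearly identical so that reads may be split between them, was 0.47 (SE 0.18).

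Hspb1, a small heat shock protein, had the largest log2 fold change of the list, 0.79 (SE 0.28), from 5.28, 5.99, 12.7 and 15.5 CPM in vehicle and 7.44, 17.9, 17.4, 23 and 18.5 CPM at 0.1 mg/kg. Its vehicle libraries fell into a lower and a higher pair, and treated animal 23 lay between them. Cryab, the small heat shock protein alpha B crystallin, averaged 61.4 ± 2.67 CPM (n = 4, SD) in vehicle and 83.4 ± 19.4 CPM (n = 5, SD) at 0.1 mg/kg. Stip1, which links Hsp70 to Hsp90, and Dnaja1, an Hsp40, did not overlap between groups. Dnaja1 ran from 268 to 295 CPM in vehicle and from 312 to 327 CPM at 0.1 mg/kg. The remaining members at that p were Hspe1, which encodes a mitochondrial and not a cytosolic chaperonin (log2 fold change 0.34), and the Hsp90 cochaperone genes Fkbp4 (0.30) and Chordc1 (0.24).

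The heat shock list had medians of 0.01 at 1 mg/kg and 0.04 at 6 mg/kg. Cryab was at 83.4 CPM at 6 mg/kg, the same as at 0.1 mg/kg, so the members did not all share that pattern. In striatum 7 of 22 stood higher at an unadjusted edgeR p under 0.05 and none lower, with a median of 0.21. Hspa1a was at 0.62 (SE 0.22) there. In liver at 0.1 mg/kg (4 libraries) the list's median was 0.38, with Hspb1 at 1.73 and Stip1 at 0.63. Within prefrontal cortex the count of 9 became 6 with the length slope in the model and 6 without animals 24 and 28, of which 5 and 4 were among the 9. Leaving out single libraries gave 5 to 13 members, with 5 without vehicle animal 3 and 5 without vehicle animal 4. The heat shock element was searched as GAA, TTC and GAA with 2 bases between neighbours, on both strands. In the 250 bases before the start site it was held by 2 of 17 list genes with a RefSeq promoter, Hspe1 and Hspd1. Over all genes with a RefSeq promoter the share was 139 of 27025 (0.514%). Whether the matches of Hspe1 and Hspd1 are 1 shared site was not tested.

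A few genes of the cholesterol list stood lower. Insig1, which holds SREBP factors in the ER membrane and is itself an SREBP target, was at 95.6, 72.1, 89 and 86.2 CPM in vehicle and 68.1, 61.8, 59.3, 65.9 and 68.9 CPM at 0.1 mg/kg. These groups did not overlap. EdgeR gave a log2 fold change of -0.40 (SE 0.11), a p of 0.00112 and an adjusted p of 0.742. Hsd17b7, an enzyme of sterol synthesis, was at 30.6, 26.9, 27.2 and 24.9 CPM in vehicle and 25.3, 20.8, 17.1, 16 and 27.2 CPM at 0.1 mg/kg, a log2 fold change of -0.37 (SE 0.15). Animals 24, 25 and 28 lay below the vehicle range, and animals 23 and 29 lay within it.

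Of 23 tested genes on the cholesterol list 4 (17.4%) stood lower at an unadjusted edgeR p under 0.05, against 3.03% of all genes, and none stood higher. The others were the synthesis enzyme genes Lss, lanosterol synthase (log2 fold change -0.34), and Sqle, squalene epoxidase (-0.21). The list's median was -0.10 at the low dose, and -0.12 and -0.16 at the higher ones. In striatum it was -0.12, with Insig1 at -0.25 (SE 0.11) and Hsd17b7 at -0.32 (SE 0.17). In liver it was -0.42. With the length slope in the model 6 members stood lower and none higher. Of these 6, 2 were among the 4. Without animals 24 and 28 there were 2 lower, 1 of them among the 4. The count rested on single libraries: with vehicle animal 8 left out it was 9, with vehicle animal 7 left out 2, and with vehicle animal 3 or treated animal 25 left out 1.

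**Figure D3:**
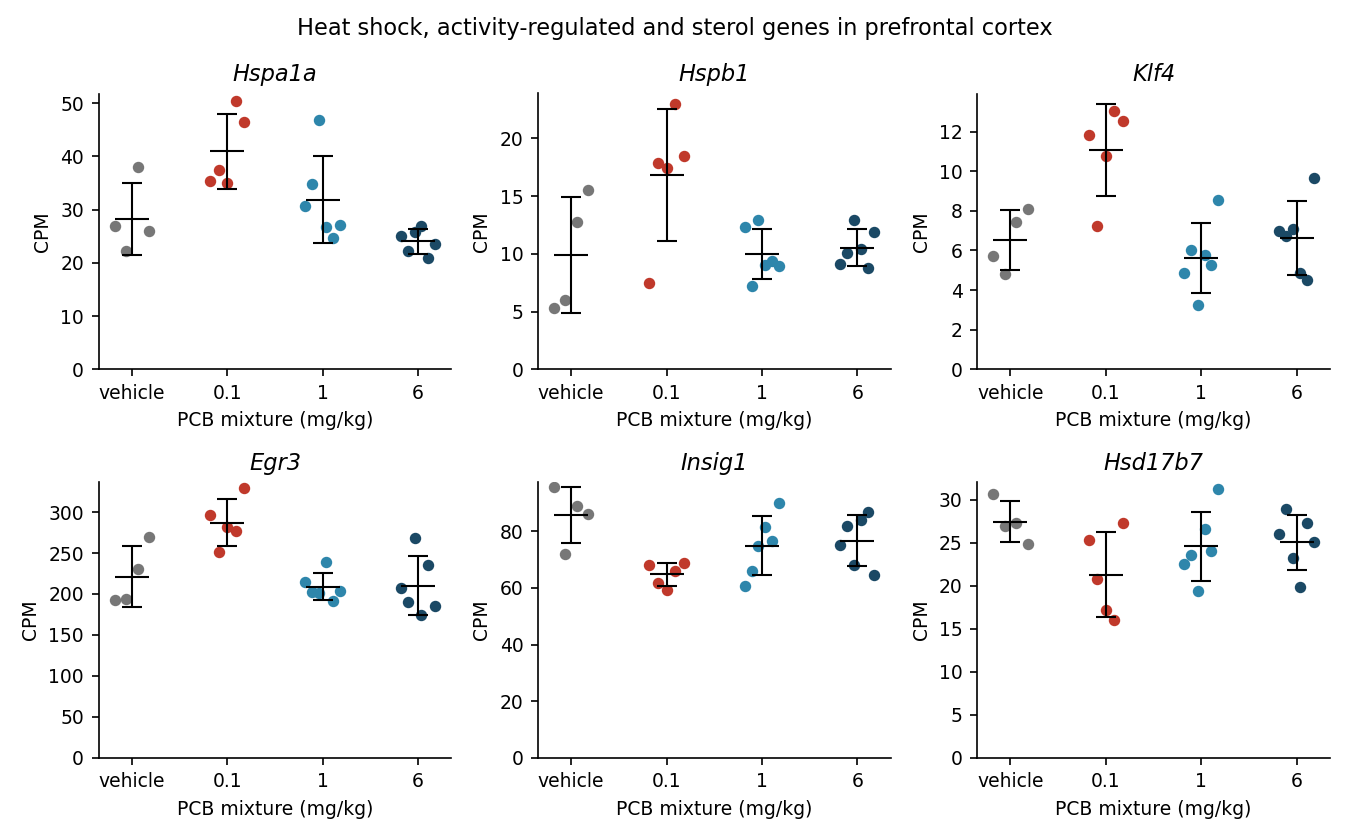
CPM in each prefrontal library (points) by dose of the PCB mixture in mg/kg, with group mean and SD (black; n = 4, 5, 6 and 6), for the heat shock genes Hspa1a and Hspb1, the activity-regulated genes Klf4 and Egr3 and the sterol genes Insig1 and Hsd17b7. Insig1 lies lower at 0.1 mg/kg than in any vehicle library, and 1 treated library each lies within the vehicle range for Klf4 and Egr3.

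Neuronal immediate early genes, transcribed within minutes of synaptic activity, had the highest median of the 33 lists in the main fit, 0.33. Of 28 tested members 7 (25%) stood higher at an unadjusted edgeR p under 0.05, against 3.40% of all genes, and none lower. In no member did the groups separate without overlap. Klf4, a zinc finger transcription factor, was at 5.71, 4.84, 7.45 and 8.10 CPM in vehicle and 11.9, 7.22, 10.8, 13.1 and 12.5 CPM at 0.1 mg/kg, where animal 24 lay within the vehicle range and the other 4 lay above it. Its log2 fold change was 0.77 (SE 0.24). Egr3, a transcription factor induced by activity, was at 192, 193, 230.0 and 269.6 CPM in vehicle and 297, 251, 282, 276 and 329 CPM at 0.1 mg/kg, a log2 fold change of 0.38 (SE 0.12). Only vehicle animal 8 and treated animal 24 overlapped.

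Homer1, which yields a short activity-induced form of a synaptic scaffold, had a log2 fold change of 0.40 (SE 0.15), and the synaptic pentraxin gene Nptx2 0.42 (SE 0.17). Bdnf, the brain-derived neurotrophic factor gene, was at 35.9, 30.5, 34.6 and 31.5 CPM in vehicle and 44.9, 29.5, 51.9, 36.9 and 51.8 CPM at 0.1 mg/kg. Animal 24 lay below the vehicle range, and the log2 fold change was 0.38 (SE 0.16). The other members at that p were Egr1 (0.35) and Ptgs2 (0.41). The list's median was -0.19 and -0.36 at 1 and 6 mg/kg, and -0.10 in striatum. The difference between regions was not beyond the adjusted threshold for any gene; for Klf4 it was 0.82 (edgeR adjusted p = 0.990). With the length slope in the model the median was 0.14, under those of the ER stress (0.18) and heat shock (0.15) lists. In that model 6 members were higher, 5 of them among the 7. Without treated animal 28 the median was 0.22. Leaving out single libraries gave 3 to 9 members, with 3 without vehicle animal 4 and 4 without treated animal 25, 28 or 29.

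Glucocorticoid-responsive genes stood out by the number of members rather than by their median. Of 20 tested, 6 (30%) stood higher at an unadjusted edgeR p under 0.05, against 3.40% of all genes, and none lower. The median was 0.05. Tsc22d3, which encodes the glucocorticoid-induced leucine zipper, was at 59.2, 57.5, 58.6 and 54.7 CPM in vehicle and 56.9, 94.1, 69.2, 85 and 79.4 CPM at 0.1 mg/kg, and only animal 23 lay within the vehicle range. Its log2 fold change was 0.42 (SE 0.13) in prefrontal cortex and 0.38 (SE 0.15) in striatum. Hsd11b1, which regenerates active glucocorticoid, was at 0.49, Plin4, a lipid droplet protein, at 1.19 (SE 0.52), Cdkn1a at 0.34, the metallothionein gene Mt1 at 0.29, and Fkbp4, shared with the heat shock list, at 0.30. Plin4 rested mostly on animal 29 (14.7 CPM, against 0.951 to 4.43 CPM in vehicle). The list's medians were -0.04 and -0.05 at 1 and 6 mg/kg, where Hsd11b1 was at 0.57 and 0.60, Mt1 at 0.44 and 0.40, Tsc22d3 at 0.15 and 0.16, and Cdkn1a at -0.12 and -0.56. In the model with the length slope 5 members were higher, of which 2 were among the 6, and the median was 0.12. Without animals 24 and 28 no member of this list had an unadjusted p under 0.05, while its median was 0.10. Leaving out single libraries gave 2 to 8 members, with 2 without vehicle animal 3 and 3 without treated animal 28, and medians from 0.02 without vehicle animal 3 to 0.18 without vehicle animal 4.

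The SR proteins bind exonic enhancers and govern splice site choice. The list of SR splicing factors held 22 tested genes, 12 for SR and Tra2 proteins and the rest for the Clk and Srpk kinases that phosphorylate them and for Luc7-like and Rbm splicing proteins. Of the 22, 5 (22.7%), all Srsf genes, stood higher at an unadjusted edgeR p under 0.05, against 3.40% of all genes, and none lower. Srsf3, Srsf2 and Srsf10 lay higher without overlap, against 0.923% of all genes. Srsf3 was at 112, 115, 112 and 117 CPM in vehicle and 124, 129, 147, 142 and 130.5 CPM at 0.1 mg/kg, a log2 fold change of 0.24 (SE 0.08). Srsf2 and Srsf10 had log2 fold changes of 0.24 and 0.23, and Srsf9 and Srsf6 of 0.29 and 0.17. Srsf6 was higher at the larger doses, at 0.25 and 0.35. The list's median was 0.08, and 3 members were higher at that p, and 1 lower, with the length slope in the model. There were 3 higher without animals 24 and 28 as well, 2 of them among the 5. Leaving out vehicle animal 3 or vehicle animal 4 also gave 3 members higher.

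Among the 10 genes with the smallest p-values in each direction, several were on none of the lists above. Sdc4 encodes syndecan 4, a cell surface heparan sulfate proteoglycan (chr2:164424247-164443188, GRCm38). It was at 36.1, 41.2, 38.7 and 37.8 CPM in vehicle and 41.6, 55.3, 53.9, 55.1 and 55.2 CPM at 0.1 mg/kg, without overlap, although animal 23 stood only just above vehicle animal 4. The log2 fold change was 0.44 (SE 0.10) in prefrontal cortex (edgeR adjusted p = 0.584) and 0.43 (SE 0.12) in striatum. Fmnl1, a formin that assembles actin filaments, was at 135, 150.1, 159 and 140.5 CPM in vehicle and 188, 218, 176, 219 and 185 CPM at 0.1 mg/kg, also without overlap. Its log2 fold change was 0.43 (SE 0.11), against 0.02 and -0.01 at 1 and 6 mg/kg. Brix1, a ribosome biogenesis factor, did not overlap either (0.45, SE 0.12), and was at 0.29 and 0.37 at 1 and 6 mg/kg.

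The further genes higher in this set were lowly expressed or share sequence with relatives. Arhgap9, a GTPase activating protein, averaged 0.343 ± 0.174 CPM (n = 4, SD) in vehicle and 1.17 ± 0.170 CPM (n = 5, SD) at 0.1 mg/kg, and its log2 fold change of 1.77 (SE 0.42) had counterparts of 1.89 and 1.28 at 1 and 6 mg/kg against the same vehicle libraries. Its difference from striatum, 2.31, had the smallest p-value of that test, with an edgeR adjusted p of 0.990, and none of 15028 genes (0%) passed it. The calcium channel subunit gene Cacna2d4 (1.14) and Fam89a (1.69) were also under 4 CPM in all 9 libraries. At 1 and 6 mg/kg Cacna2d4 was at 0.74 and 1.01, and Fam89a at 0.67 and 0.80. H2bc8, a histone gene with close relatives (1.10), and Ppp1ccb, a close relative of Ppp1cc (0.42), may share reads with those genes.

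Of the genes lower in this set, Gucy1a1, a subunit of the nitric oxide receptor guanylate cyclase, was the most abundant. It was at 106, 114, 107 and 125 CPM in vehicle and 94.4, 66.6, 82.1, 73.6 and 82.6 CPM at 0.1 mg/kg, without overlap, a log2 fold change of -0.50 (SE 0.13). At 1 and 6 mg/kg the values were -0.05 and -0.03. Adarb2, a brain member of the RNA editing deaminase family that is also on the interneuron marker list, was at 18, 17.9, 16.7 and 14.7 CPM in vehicle and 10.6, 8.29, 13, 8.98 and 12 CPM at 0.1 mg/kg, again without overlap (-0.67, SE 0.17). Syne2, a nuclear envelope protein with a transcript of 21704 bases, averaged 23.1 ± 1.31 CPM (n = 4, SD) in vehicle and 17 ± 1.77 CPM (n = 5, SD) at 0.1 mg/kg. The log2 fold changes at 1 and 6 mg/kg were -0.41 and -0.28 for Adarb2, and -0.18 and -0.14 for Syne2.

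Ankfn1 was at 5.10, 9.15, 6.59 and 5.82 CPM in vehicle and 4.76, 1.51, 2.60, 1.88 and 3.36 CPM at 0.1 mg/kg, without overlap. Its log2 fold change was -1.24 (SE 0.28) in prefrontal cortex and 0.27 (SE 0.36) in striatum. In prefrontal cortex at 1 and 6 mg/kg it was -0.64 and -0.93 against the same vehicle libraries. The difference between regions had an edgeR adjusted p of 0.990, as had that of the zinc finger gene Zfp28 (-0.78 in prefrontal cortex and 0.20 in striatum). Frem1, an extracellular matrix protein (-1.25), Ap5b1, an adaptor complex subunit (-1.04), and the orphan receptor gene Gpr157 (-0.95) were each under 7 CPM in every one of the 9 libraries. At 1 and 6 mg/kg Frem1 was at -0.64 and -0.82, and Zfp28 at -0.24 and -0.47. Ap5b1 was at -0.10 and -0.25 there, and Gpr157 at -0.35 and -0.25.

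Separation without overlap picked out further genes at a mean of at least 10 CPM. Higher without overlap were Snrpf, a core protein of spliceosomal particles (0.64, SE 0.23), the ATP synthase subunit gene Atp5k (0.61, SE 0.19), Ankmy1 (0.60) and Tmem200b (0.49). Atp5k was at 32.6, 24.7, 26.7 and 33.3 CPM in vehicle and 40.4, 44.7, 53.9, 49.2 and 36 CPM at 0.1 mg/kg, and averaged 52 CPM at 1 mg/kg. Lower without overlap were Soga1 (-0.74, SE 0.29), the giant cadherin gene Fat3 (-0.69, SE 0.27), the matrix protein gene Fras1 (-0.65, SE 0.26) and the endocytic receptor gene Lrp1b (-0.64, SE 0.23). At 1 and 6 mg/kg Soga1 was at -0.43 and -0.61, and Fat3 at -0.46 and -0.31. Fras1 was at -0.61 and -0.48 there, and Lrp1b at -0.45 and -0.38. In Fat3 the treated libraries were at 83.2, 49.1, 68, 44.4 and 80.2 CPM, lowest in animals 24 and 28, and the vehicle libraries at 94.1, 119, 91.7 and 113 CPM. Kdr, a receptor for vascular endothelial growth factor, was lower as well (-0.47, SE 0.15), at 11, 10.2, 14.03, 7.21 and 12 CPM in animals 23, 24, 25, 28 and 29 against a vehicle minimum of 14.04 CPM. The groups did not overlap, although animal 25 lay only just under that minimum.

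Known PCB targets gave few members at an unadjusted edgeR p under 0.05. Of 31 tested genes of the xenobiotic response 2 stood higher, the retinaldehyde dehydrogenase gene Aldh1a1 (0.27, SE 0.11) and the glutathione transferase gene Gstm1 (0.23, SE 0.11), and none lower, with a median of 0.04. Of 29 genes of ryanodine receptors and store calcium 2 stood higher, Calr and Homer1 (both given above), and 3 lower. These included Ryr2, the ryanodine receptor most abundant in forebrain, at 216, 231, 211 and 171 CPM in vehicle and 203, 121, 141, 114 and 176 CPM at 0.1 mg/kg (-0.46, SE 0.20), and Cacna1d, an L-type calcium channel (-0.36, SE 0.15). Both have long transcripts, of 16814 and 9658 bases, and were lowest in animal 28. With the length slope in the model none of the 3 was lower at that p and 2 other members were, and the list's median went from -0.07 to 0.01. Without animals 24 and 28 again none of the 3 was lower at that p and 1 other member was, with a median of 0.00. Calr and Homer1 were higher at that p in both settings. Of the xenobiotic list no member had an unadjusted p under 0.05 with the length slope in the model, and 1 had without animals 24 and 28. Its medians in these settings were 0.06 and 0.07, against 0.04 as fitted. With single libraries left out the xenobiotic median ran from 0.04 to 0.10, the latter without vehicle animal 8. The calcium median ran from -0.08 to -0.02, the latter without treated animal 24.

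Among 30 thyroid hormone genes Nrgn, the neuronal calmodulin-binding protein neurogranin, stood higher (0.41, SE 0.17) and Crym, which binds thyroid hormone in the cytosol, lower (-0.35, SE 0.16). That is 1 gene in each direction (3.33%), near the shares over all genes, 3.40% higher and 3.03% lower. Nrgn was not among the 2 members higher with the length slope in the model or the 1 without animals 24 and 28, and the second setting left no member lower. With single libraries left out the list had 0 to 5 members higher (5 without treated animal 23, 3 without treated animal 25 or vehicle animal 7, 2 without treated animal 29 or vehicle animal 3 or 8, 0 without treated animal 28 or vehicle animal 4) and 0 to 2 lower (2 without treated animal 23, 0 without treated animal 24 or 25 or vehicle animal 8). No member reached that p among 25 genes of monoamine signalling, 23 of GABA signalling, 25 clock genes or 17 genes of DNA methylation. Single libraries changed this too: without treated animal 23 there were 4 GABA, 3 DNA methylation and 2 monoamine genes lower, and without treated animal 29 there were 3 DNA methylation genes and 1 monoamine gene lower. Without treated animal 25 there were 1 DNA methylation gene lower, and 1 DNA methylation and 1 monoamine gene higher, and without vehicle animal 7 there was 1 DNA methylation gene lower. Of the clock genes 1 was higher without treated animal 23 or 29, and 2 were with the length slope in the model. Of the 23 GABA genes 21 had a negative log2 fold change. Of these 2 lay lower without overlap, against 1.14% of all genes. The GABA median was -0.08, or -0.002 with the length slope in the model. It was -0.16 without treated animal 23 and -0.04 without treated animal 28. The xenobiotic list thus had 6.45% of members higher and the calcium list 6.90% higher and 10.3% lower, against 3.40% and 3.03% over all genes, which rests on 2 or 3 genes in each case. With single libraries left out the xenobiotic list had 0 to 4 higher (0 without treated animal 25, 4 without treated animal 23 or 29), and the calcium list 1 to 3 higher and 1 to 4 lower (1 lower without treated animal 24 or 28 or vehicle animal 7).

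A different pattern covered whole families of short transcripts. All 67 tested genes of cytosolic ribosomal proteins had a positive log2 fold change, with a median of 0.21, as large as that of the ER stress list. Of these 5 (7.46%) reached an unadjusted edgeR p under 0.05, against 3.40% of all genes higher. That count rested on single libraries: it was 20 without treated animal 29, 16 without treated animal 23 and 8 without vehicle animal 8, but 3 without treated animal 24 or vehicle animal 7, 2 without treated animal 28 or vehicle animal 4, and 1 without treated animal 25. Rps29 averaged 71 ± 11.5 CPM (n = 4, SD) in vehicle and 108 ± 26.1 CPM (n = 5, SD) at 0.1 mg/kg, and Rps28 26.6 ± 3.71 CPM (n = 4, SD) and 42.9 ± 10.8 CPM (n = 5, SD); both have processed copies in the genome with which reads may be shared. Nuclear-encoded subunits of the respiratory chain had a median of 0.18, with Atp5o at 0.78 (SE 0.26) and Cox7c at 0.39 (SE 0.15). With the length slope in the model these medians became -0.02 and -0.03, and 24 of 67 ribosomal genes were positive. No ribosomal gene had an unadjusted p under 0.05 in that model, and none had without animals 24 and 28. In the latter setting the ribosomal and respiratory medians were 0.09 and 0.03. Lists of long genes lay on the other side: delta protocadherins had a median of -0.24 and autism risk genes -0.17, which became -0.02 and -0.01. The medians of the ER stress, heat shock and cholesterol lists kept their sign in that model, at 0.18, 0.15 and -0.11. With single libraries left out the median of the autism risk genes ran from -0.23 to -0.09, the latter without treated animal 28.

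**Figure D4:**
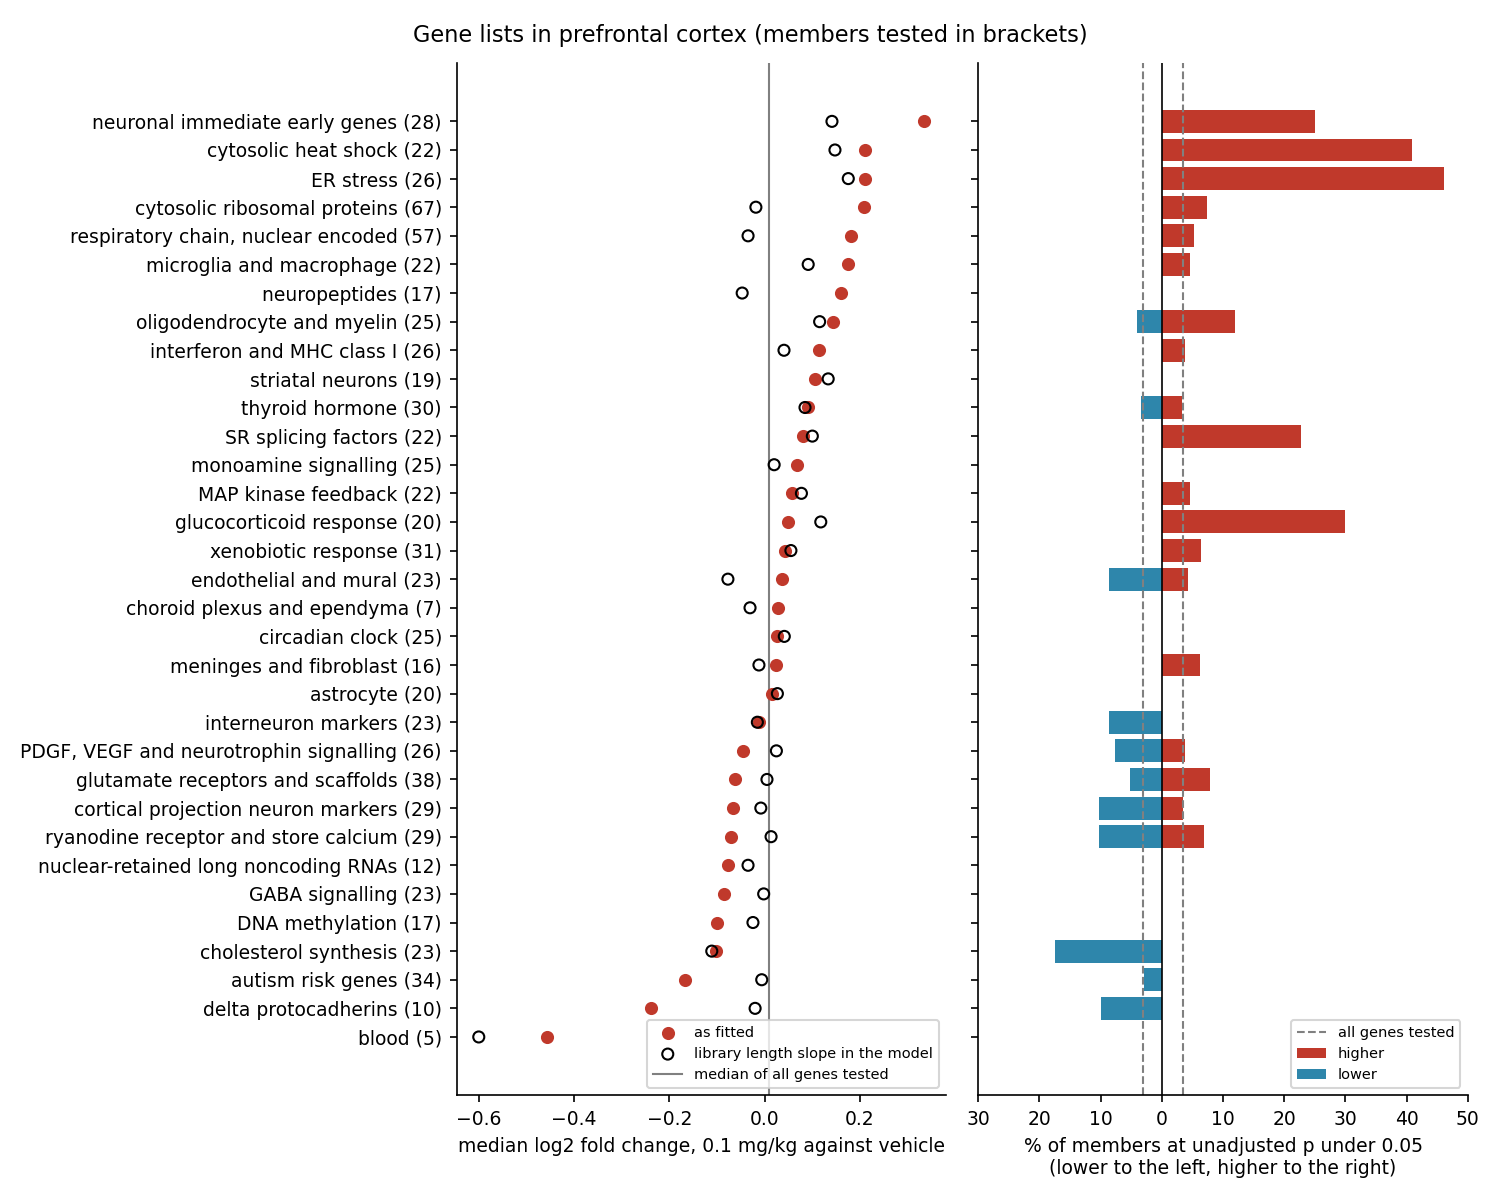
The 33 gene lists in prefrontal cortex at 0.1 mg/kg against vehicle, ordered by median log2 fold change (left; red, as fitted; open circles, with the library length slope in the model; grey line, all genes) and the percentage of tested members at an unadjusted p under 0.05 (right; dashed lines, 3.40% higher and 3.03% lower over all genes). The ER stress and heat shock lists hold the largest shares of higher members, 46.2% and 40.9%, and the ribosomal and respiratory lists move to near 0 with the length slope.

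Over all genes the log2 fold change followed transcript length. Genes with a longest transcript of up to 1 kb had a median of 0.20, those of 1 to 2 kb 0.13, and those over 6 kb -0.15. Of the shortest, 8.61% stood higher at an unadjusted edgeR p under 0.05, and of the longest 8.80% stood lower. In striatum the same medians were 0.09, 0.03 and -0.03. The ER stress genes had a median transcript length of 2487 bases and the heat shock genes of 2885 bases, against 3479 bases over all genes tested. How far the length slopes enter the differences of single genes was not tested beyond the values given.

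**Figure D5:**
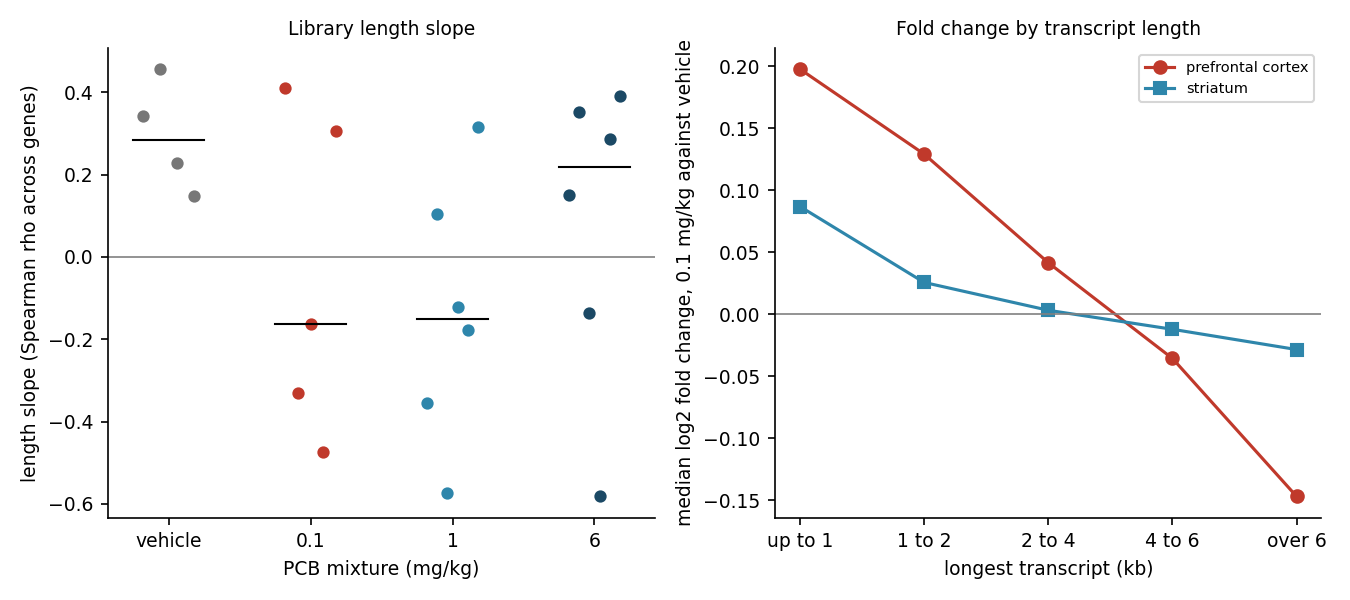
Left, length slope of each prefrontal library (points; Spearman correlation across genes) by dose, with the group median (line). Right, median log2 fold change at 0.1 mg/kg against vehicle by length of the longest transcript in kb, for prefrontal cortex (red) and striatum (blue). The vehicle libraries lie at 0.149 to 0.456 and the treated ones at -0.474 to 0.409, and the prefrontal medians run from 0.20 in the shortest to -0.15 in the longest genes.

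Markers of cortical neurons were present in every library, and so were markers of striatal neurons. Slc17a7, the vesicular glutamate transporter of cortical excitatory neurons, was at 1481 to 1823 CPM in vehicle and 1359 to 1811 CPM at 0.1 mg/kg, and Tbr1, Fezf2, Cux2 and Neurod6 were present in every library. Of the genes of striatal projection neurons, Drd1 was at 54 to 112 CPM in vehicle and 55.9 to 106 CPM at 0.1 mg/kg, and Ppp1r1b at 402 to 1076 and 668 to 1040 CPM. In the vehicle libraries of striatum, scaled separately from those of prefrontal cortex, Drd1 averaged 157 CPM against 81.9 CPM in prefrontal cortex, Drd2 192 against 81.9 CPM, and Ppp1r1b 1615 against 726 CPM. Slc17a7 averaged 390.3 CPM in striatum against 1664 CPM. Whether the prefrontal punches held striatal tissue is not given in the sources used here and was not tested. The 19 tested genes of the striatal neuron list had a median log2 fold change of 0.10, with none at an unadjusted edgeR p under 0.05. That median was -0.12 without vehicle animal 3, 0.04 without treated animal 25, 0.17 without treated animal 24 and 0.40 without vehicle animal 8. The haemoglobin gene Hba-a1 ranged from 30.7 to 471 CPM in vehicle and from 28.2 to 163 CPM at 0.1 mg/kg.

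None of the defining markers (such as Slc17a7, Gad1, Mbp, Aqp4 and Cx3cr1) of excitatory neurons, interneurons, oligodendrocytes, astrocytes, microglia, endothelium, meninges, choroid plexus or blood that were tested had an unadjusted p under 0.05. The nearest was Mbp, the myelin basic protein gene, at 901 to 1405 and 1081 to 1521 CPM. The microglial marker C1qa lay just higher without overlap, at 29.8 to 39.03 and 39.09 to 51.2 CPM (log2 fold change 0.34). The interneuron marker Pvalb was at 26.0 to 36.8 and 28.9 to 80.0 CPM (0.61). The oligodendrocyte list had 3 higher (12%) and 1 lower (4%) of 25, against 3.40% and 3.03% of all genes. Its count higher was 13 without vehicle animal 8, 6 without treated animal 23, and 1 without treated animal 24 or 25 or vehicle animal 3, 4 or 7. No oligodendrocyte member was higher or lower at that p with the length slope in the model, where the list's median was 0.12, against 0.14 as fitted. The longer neuronal lists held members that were lower: 3 of 29 cortical projection neuron genes (10.3%), Ntsr1, Crym and Tle4, with 1 higher, Pou3f1, and 2 of 23 interneuron genes (8.70%), Adarb2 and Erbb4, with none higher, against 3.03% of all genes lower. Erbb4, a neuregulin receptor, was at 88.4, 98.9, 73.9 and 72.4 CPM in vehicle and 90.1, 51.1, 52.4, 38.3 and 63.6 CPM at 0.1 mg/kg, where animal 23 lay within the vehicle range and the others below it (-0.50, SE 0.20). The projection neuron list had 0 to 5 members lower with single libraries left out, with 5 without treated animal 23, 1 without vehicle animal 4 or 7 and 0 without treated animal 25. The interneuron list had 1 to 4, with 4 without treated animal 29 and 1 without treated animal 28 or vehicle animal 4. In the model with the length slope 2 of the 3 and both interneuron genes were lower at that p, and without animals 24 and 28 there were 1 of the 3 and 1 of the 2. The part of cell composition in the differences above was not tested.

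Vessel and microglial genes gave mixed values. Slc2a1, the glucose transporter of brain capillaries, stood higher, at 86.4, 92.4, 99.6 and 109 CPM in vehicle and 98.9, 149, 117, 137 and 134 CPM at 0.1 mg/kg (0.39, SE 0.13), while Kdr, also an endothelial gene, stood lower. The endothelial and mural list as a whole had 1 member higher (4.35%) and 2 lower (8.70%) of 23 tested. Over all genes these shares were 3.40% and 3.03%. With single libraries left out the list had 1 to 2 in each direction. Ctss, the lysosomal protease cathepsin S of microglia, was the member of the microglial list at that p (0.30, SE 0.11 in prefrontal cortex, 0.36 in striatum), where 17 of 22 members were positive and the median was 0.18. The share higher at that p was 4.55% of the microglial list, near the 3.40% of all genes. That list had 5 members higher without treated animal 23 and 3 without treated animal 29. Without treated animal 25 it had 0 and a median of 0.05. None was higher at that p with the length slope in the model.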

How the data were processed

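Libraries were grouped by their tissue and treatment labels. The deposited tables hold whole-number read counts per gene, keyed by Entrez identifier, not normalized by the authors as far as the values show. The submitters' processing notes name FastQC, HISAT2 and the mm10 build with no role or order. The counting tool, annotation and use of strand were not given in the sources used here, so overlapping and antisense genes cannot be told apart, and the labels name poly(A) capture or ribosomal RNA removal without saying which was used. Symbols came from RefSeq (GRCm38.p6) and transcript lengths from GENCODE vM21.

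Counts were filtered with filterByExpr, TMM-scaled and fitted with edgeR 4.0.16 (R 4.3.3) by the robust quasi-likelihood test over all 21 prefrontal libraries, so that the dose groups shared one estimate of the spread. The contrast was 0.1 mg/kg minus vehicle, and p-values were adjusted over all genes tested. The SE of a log2 fold change was derived from its F value. Striatum and liver were fitted alike, and the difference between regions by an interaction term. CPM are TMM-scaled, log2 CPM use a prior count of 2. Alternatives used DESeq2 1.42.0, sva 3.50.0 and other filters, scalings and samples. Scripts were tested on simulated counts.

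Named genes were the 10 of smallest p in each direction, up to 4 members of each list at an unadjusted p under 0.05, the 3 of smallest p between regions, genes passing in either tool, 5 in each direction without overlap at a mean of at least 10 CPM, and fixed markers. Further list members (such as Pdia6, Atf4, Hsp90b1, Hspa1b, Egr1 and Srsf6) and those with the promoter element were named after their values were seen. Some genes that the rule names are not reported here. The comparison and the gene lists were chosen with earlier results of these data known. No 2 libraries of a group agreed within sampling noise.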

Additional observations from a re-analysis of the deposited data

Results flagged for a closer look

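Among the libraries of each group, 168 sets of values (genes named above, library totals and slopes, in the treated and the vehicle group) were examined for a library far from the rest by Dixon's criterion. It marked 6, where chance alone would mark about 8.4. Sdc4 was at 41.6 CPM in animal 23, against 53.9 to 55.3 CPM in the other libraries at 0.1 mg/kg. Hsp90b1 was at 376.8 CPM in animal 25, against 300.3 to 321 CPM in the others. In vehicle, Sqle was at 71.6 CPM in animal 8 (the others 85.4 to 87.9), Egr1 at 497 CPM in animal 8 (the others 423 to 431), Srsf10 at 48.8 CPM in animal 3 (the others 54.5 to 55.5) and Brix1 at 11.2 CPM in animal 7 (the others 14.0 to 14.3).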

How the results depend on the processing

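The count of genes passing the adjusted threshold was 0 in edgeR under each alternative run and 1 (Manf) in DESeq2, and the range over single libraries left out was 0 to 0. The adjusted p of Manf ranged from 0.0379 to 0.999 over the alternatives. The 954 genes at an unadjusted p under 0.05 became 622 with the length slope in the model and 411 without animals 24 and 28 (both alternatives chosen after seeing the data), 736 with 1 surrogate variable, 1007 in DESeq2, and 560 to 1798 with single libraries left out. The highest count came without treated animal 23, and the counts without treated animal 28 (560) and without vehicle animal 4 (581) were under the main count by over 1.5 times. The 81 genes named from the fits kept their direction under each of 18 alternatives in which they had a value. Arhgap9 and Fam89a had none under a mean of at least 10 counts. The difference between regions gave 0 passing genes under every alternative, 0 to 0 with single animals left out, with 400 to 829 genes at an unadjusted p under 0.05. With the animal number as a replicate block it gave 0 passing and 956 at an unadjusted p under 0.05, against 537 without. Same-numbered prefrontal and striatal libraries correlated at -0.08 to 0.21, above 0.1 in 5 of 9 pairs, and 4 of 9 libraries correlated best with their own number. These values do not settle whether the numbers are pairs. The main fit took no pairs because the labels do not state them. Between 0.1 mg/kg (5 libraries) and vehicle (4 libraries), differences of single genes of the size described here did not pass adjustment in edgeR. Between 0.1 and 6 mg/kg (6 libraries) a difference of similar size did pass for Hspa5 (0.56, edgeR adjusted p = 0.0342). The part of group size in this was not tested.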
